A study of Mus musculus with 29 samples.

Results

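The expression of 9 Wnt ligand genes was described across the embryonic mouse brain: Wnt2b, Wnt3, Wnt3a, Wnt4, Wnt5a, Wnt5b, Wnt7a, Wnt7b and Wnt8b. They were chosen by gene symbol, as 9 of 25239 genes listed in the count tables, and all 9 were among the 15383 genes that passed the filter on low counts. The RNA libraries came from embryos of stage E11.5 and fall into 4 groups of 2 pools: wild-type forebrain, forebrain with the hs267-853 knockout, wild-type midbrain, and midbrain with the hs654 knockout. The knockouts remove enhancers, and the label hs267-853 does not say whether 1 or 2 elements were removed. Each pool held one tissue and one genotype from several embryos, so a pool is not a single animal, and the strain is not given in the sources used here. With 2 pools a group, the p-values below set each difference against a spread between pools. That spread was estimated from all 4 groups together and with information from other genes. It is not the spread between single embryos. The Hi-C part of the series was not analysed here.

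Wnt proteins are secreted, lipid-modified signals. Porcn attaches the lipid, Wls carries the protein to the cell surface, and Frizzled receptors with Lrp5 or Lrp6 receive it. In the pathway named for beta-catenin this leads to transcription through TCF/LEF factors. Wnt5a and Wnt5b are better known for signalling that does not go through beta-catenin, with Ror2 as a receptor. In the developing brain, Wnt2b, Wnt3a and Wnt8b are among the ligands known from the cortical hem. The hem is the dorsomedial edge of the telencephalon and patterns the hippocampus. Wnt7a and Wnt7b are made by neural progenitors and act on the blood vessels growing into the brain.

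The members lie on 7 chromosomes, given here from RefSeq on GRCm38.p6, the assembly also called mm10. Wnt8b spans chr19:44493472-44514273 and Wnt4 chr4:137277635-137299501, and neither overlaps another gene of that annotation. The same holds for Wnt3a at chr11:59248036-59290751, which lies 16098 bases from Wnt9a, and for Wnt5a at chr14:28504543-28527448. Wnt3, at chr11:103774175-103818021, overlaps the span of Wnt9b. Wnt7b, at chr15:85535437-85581821, overlaps AU022754, and Wnt2b, at chr3:104944805-104961709, overlaps St7l. Wnt7a, at chr6:91363981-91411353, overlaps Gm30437. Wnt5b, at chr6:119432531-119544824, overlaps Fbxl14, Gm30690, Gm40397 and Gm52875. Of the genes that overlap Wnt7a or Wnt5b, only Fbxl14 is in the count tables. The strand setting of the counting is not given in the sources used here, so reads from overlapping genes cannot be told apart with certainty.

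Upstream sequence is shown for the 3 members with the largest regional differences in wild-type tissue, Wnt8b and Wnt3a in one direction and Wnt3 in the other. Each line gives the 250 bases before the annotated start, in the gene's own orientation, from RefSeq on GRCm38.p6: chr19:44493222-44493471 on the plus strand for Wnt8b, chr11:59290752-59291001 on the minus strand for Wnt3a, and chr11:103773925-103774174 on the plus strand for Wnt3. Capitals mark matches, on either strand, to the CCAAT box (CCAAT, read ATTGG on the other strand) and to a homeodomain core (TAATTA).
Wnt8b: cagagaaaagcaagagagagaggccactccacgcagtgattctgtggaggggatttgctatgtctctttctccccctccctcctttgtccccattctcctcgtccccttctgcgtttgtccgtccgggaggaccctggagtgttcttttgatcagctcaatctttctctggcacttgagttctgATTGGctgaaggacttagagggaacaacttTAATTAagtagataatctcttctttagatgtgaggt
Wnt3a: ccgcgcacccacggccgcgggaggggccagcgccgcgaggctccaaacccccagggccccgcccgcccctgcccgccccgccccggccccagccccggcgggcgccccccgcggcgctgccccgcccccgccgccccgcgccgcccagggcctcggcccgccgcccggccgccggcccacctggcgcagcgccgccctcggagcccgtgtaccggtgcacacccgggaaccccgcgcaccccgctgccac
Wnt3: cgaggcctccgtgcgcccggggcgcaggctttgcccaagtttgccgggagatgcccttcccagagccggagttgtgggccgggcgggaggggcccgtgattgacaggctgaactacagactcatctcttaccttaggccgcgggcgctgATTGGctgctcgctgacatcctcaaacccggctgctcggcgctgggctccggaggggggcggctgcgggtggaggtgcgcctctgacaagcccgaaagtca

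These windows differ in base composition. Guanine and cytosine make up 48.4% of the Wnt8b window, 68.0% of the Wnt3 window and 87.6% of the Wnt3a window, against a median of 52.4% over 32851 promoter windows of the same length. The Wnt8b window holds 5 CpG dinucleotides, that of Wnt3 holds 22 and that of Wnt3a holds 41. The homeodomain core occurs in 4.84% of all windows and, among the 7 members with an entry, in that of Wnt8b, 36 bases before the start. The CCAAT box occurs in 33.8% of all windows, and in those of Wnt8b, Wnt3 and Wnt2b among the members. The TCF/LEF core, searched on both strands as CTTTGAT, occurs in 3.21% of all windows. Among the members it was found in 1 of the 3 Wnt5b windows and in no other. No window was printed for Wnt5a and Wnt7b.

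The libraries held 9051632 to 18024406 counts in genes, and the members 36 to 4048 counts each. Levels are given as CPM, counts scaled to 1 common library size after TMM normalization. They are compared between libraries for 1 gene at a time and not between genes, since no transcript lengths were used. The tissue labels were checked against marker lists, with calls from the wild-type libraries and summed levels from all 8. All 9 tested forebrain markers were higher in forebrain, summing to 1302 to 1518 CPM there and 170 to 187 CPM in midbrain. Of 11 midbrain-hindbrain markers 8 were higher in midbrain, En2 among them at 0 in both forebrain and 144 ± 19.8 CPM (SD, n = 2) in midbrain libraries, 2 were not called, and Fgf17 was higher in forebrain (log2 0.94, edgeR adjusted p 0.0181). All 10 genes listed as markers of the diencephalon, the caudal part of the forebrain, were higher in the libraries labelled midbrain. Their median log2 difference was -2.69, and their sums were 731 to 836 against 130 to 184 CPM. Whether these genes are particular to the diencephalon at this stage was not tested, so the list does not show that midbrain pools held diencephalon. Forebrain knockout replicate 1 stood apart on the second principal component, at -33.7 against -1.66 to 18.3 in the other 7 libraries. The Wnt4 differences, which rest on it, are given with and without it. In bulk tissue, fewer cells of a type and less RNA per cell cannot be told apart.

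Of the 9 members, 6 differed between forebrain and midbrain, in wild-type libraries and again in the knockout libraries. Wnt8b, Wnt3a, Wnt7b and Wnt5b were higher in forebrain, and Wnt3 and Wnt5a were higher in midbrain. Wnt4, Wnt7a and Wnt2b did not pass the test in either comparison. The test was the quasi-likelihood F test of edgeR, with p-values adjusted over all 15383 genes by the Benjamini-Hochberg method and a threshold of 0.05. In wild-type tissue 29.6% of all genes passed, 14.3% higher and 15.3% lower in forebrain, against 6 of 9 members, 4 higher and 2 lower. Among the knockout libraries 29.4% of all genes passed, 14.6% higher and 14.8% lower in forebrain, and again 4 members were higher and 2 lower. The median absolute log2 difference of the members was 1.10 in wild-type and 1.35 in knockout libraries, against 0.23 and 0.24 over all genes tested. For the same 6 members the 4 forebrain and 4 midbrain libraries did not overlap, which was so for 40.9% of all genes. The plot of CPM by library shows these separations.

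**Figure D1:**
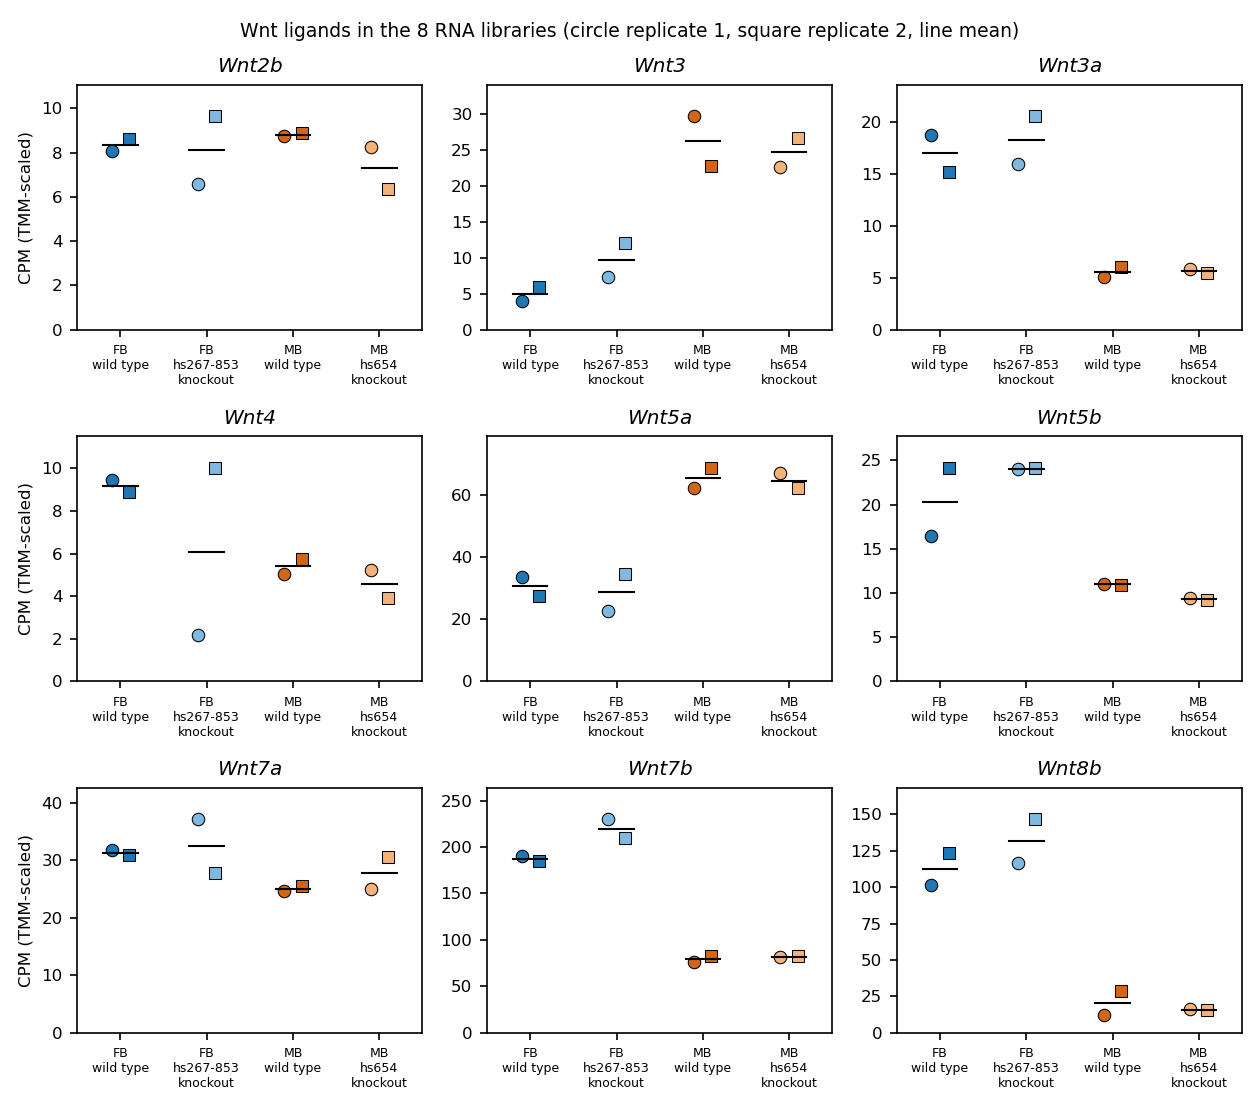
CPM on TMM-scaled library sizes (y axis, linear from 0, its own range in each panel) of the 9 Wnt ligands in the 4 groups (x axis, FB forebrain, MB midbrain). Circles are replicate 1, squares replicate 2 and lines the mean of 2. Wnt8b, Wnt3a, Wnt7b and Wnt5b are higher in all 4 forebrain libraries than in any midbrain library, Wnt3 and Wnt5a are lower in all 4, and Wnt4 is low in 1 forebrain knockout library.

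Among the hem ligands named above, Wnt8b showed the largest excess in forebrain. Its level was 102 and 124 CPM in wild-type forebrain, 116 and 147 CPM in knockout forebrain, 12.2 and 28.9 CPM in wild-type midbrain, and 16.4 and 15.5 CPM in knockout midbrain. Every forebrain library was thus far above every midbrain library. The wild-type difference was 5.61-fold, or 2.49 ± 0.25 (SE) on the log2 scale, with an edgeR adjusted p of 8.48e-06. In knockout libraries it was 8.22-fold (log2 3.04 ± 0.27, SE, edgeR adjusted p 2.38e-06). The least even group was wild-type midbrain, where replicate 2 held more Wnt8b than replicate 1. Of the 10 forebrain markers, 5 were highest in that library among the midbrain libraries, 1 in knockout replicate 1 and 4 in knockout replicate 2. In the order wild-type replicates 1 and 2, knockout replicates 1 and 2, their summed level was 170, 187, 186 and 177 CPM. In that order Emx1 stood at 0.886, 4.47, 2.50 and 1.64 CPM, Tbr1 at 0.696, 3.36, 1.46 and 0.437 CPM, and Lhx2, lowest in that library, at 110.5, 106, 120.4 and 108 CPM. Their part in the Wnt8b level was not tested. Without wild-type midbrain replicate 2 the wild-type log2 difference of Wnt8b was 3.21, and without replicate 1 it was 1.96.

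Wnt3a, a ligand of the beta-catenin pathway needed for the hippocampus, was also higher in forebrain. Its 4 forebrain libraries held 18.7 and 15.2 CPM (wild type) and 15.9 and 20.5 CPM (knockout). The 4 midbrain libraries held 5.06 and 6.07 CPM (wild type) and 5.85 and 5.46 CPM (knockout). The ranges are far apart, and the spread within midbrain is small. The wild-type difference was 3.07-fold (log2 1.62 ± 0.19, SE, edgeR adjusted p 3.37e-05) and the knockout difference 3.20-fold (log2 1.68 ± 0.20, SE, edgeR adjusted p 3.23e-05).

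Wnt2b, the other hem ligand named above, did not share this pattern. Its level was 8.08 and 8.59 CPM in wild-type forebrain, 6.58 and 9.63 CPM in knockout forebrain, 8.73 and 8.87 CPM in wild-type midbrain, and 8.26 and 6.34 CPM in knockout midbrain. The ranges of the tissues overlapped. The wild-type log2 difference was -0.08 with a 95% interval of -0.54 to 0.38 (edgeR adjusted p 0.817). That interval holds neither the Wnt3a nor the Wnt8b difference. St7l, which overlaps the Wnt2b span, was at 21.8 to 32.1 CPM and was not called between the tissues in wild type (log2 -0.264, edgeR adjusted p 0.1585).

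Wnt3, a beta-catenin pathway ligand known for its role in forming the body axis, had the largest excess in midbrain. It stood at 4.00 and 5.88 CPM in wild-type forebrain, 7.32 and 12.1 CPM in knockout forebrain, 29.6 and 22.7 CPM in wild-type midbrain, and 22.6 and 26.7 CPM in knockout midbrain. The highest forebrain library was below every midbrain library. The wild-type level was 5.34-fold higher in midbrain (log2 forebrain minus midbrain -2.42 ± 0.25, SE, edgeR adjusted p 8.97e-06). In knockout libraries it was 2.55-fold higher in midbrain (log2 -1.35 ± 0.23, SE, edgeR adjusted p 0.000587). Wnt9b, whose annotated span overlaps Wnt3, held 0.227 to 2.36 CPM over the 8 libraries and was not called between the tissues (log2 1.74, edgeR adjusted p 0.103).

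Wnt5a, the ligand that guides cell movement and axons, was the other member higher in midbrain. Its levels were 33.7 and 27.4 CPM in wild-type forebrain, 22.8 and 34.5 CPM in knockout forebrain, 62.4 and 68.8 CPM in wild-type midbrain, and 67.1 and 62.3 CPM in knockout midbrain. No forebrain library came near the midbrain range. The excess in midbrain was 2.14-fold in wild type (log2 -1.10 ± 0.16, SE, edgeR adjusted p 0.000183) and 2.27-fold in the knockouts (log2 -1.18 ± 0.16, SE, edgeR adjusted p 0.000101).

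Wnt5b, its closest relative in the family, went the other way. It stood at 16.5 and 24.2 CPM in wild-type forebrain and 24.0 and 24.1 CPM in knockout forebrain. In midbrain it stood at 11.0 and 10.9 CPM (wild type) and 9.46 and 9.18 CPM (knockout). Wild-type forebrain replicate 1 was the lowest forebrain library and was still above all midbrain libraries. The difference was 1.84-fold in wild type (log2 0.88 ± 0.17, SE, edgeR adjusted p 0.00169) and 2.58-fold in the knockouts (log2 1.37 ± 0.18, SE, edgeR adjusted p 7.72e-05). Fbxl14, which overlaps the Wnt5b span, was at 79.9 to 108.5 CPM and was not called between the tissues in wild type (edgeR adjusted p 0.0635).

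Of the paralogs Wnt7a and Wnt7b, the second passed the test and the first did not. Wnt7b held 190 and 185 CPM in wild-type forebrain, 230 and 210 CPM in knockout forebrain, 76.4 and 82.8 CPM in wild-type midbrain, and 81.1 and 82.5 CPM in knockout midbrain. These tight groups gave a difference of 2.36-fold in wild type (log2 1.24 ± 0.07, SE, edgeR adjusted p 3.22e-08) and 2.69-fold in the knockouts (log2 1.43 ± 0.07, SE, edgeR adjusted p 1.08e-08). AU022754, which overlaps Wnt7b, was at 4.39 to 11.7 CPM and was higher in wild-type forebrain too (log2 1.06, edgeR adjusted p 0.000927). Wnt7a held 31.7 and 30.8 CPM in wild-type forebrain and 24.6 and 25.5 CPM in wild-type midbrain. In the knockouts it held 37.1 and 27.8 CPM in forebrain and 25.0 and 30.5 CPM in midbrain, and the ranges overlapped there. Its wild-type log2 difference was 0.32 with a 95% interval of 0.02 to 0.63, and it did not pass after adjustment (edgeR adjusted p 0.108). The interval lies below the Wnt7b difference.

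Wnt4, known from kidney and female gonad development as well as the brain, was uneven in forebrain. It stood at 9.43 and 8.90 CPM in wild-type forebrain, 2.16 and 10.0 CPM in knockout forebrain, 5.06 and 5.75 CPM in wild-type midbrain, and 5.25 and 3.93 CPM in knockout midbrain. Knockout replicate 1 lay below the midbrain range, and the other 3 forebrain libraries lay above it. The wild-type log2 difference was 0.77 with a 95% interval of -0.22 to 1.75 (edgeR adjusted p 0.235). That of the knockouts was 0.37 (edgeR adjusted p 0.622). Without forebrain knockout replicate 1 the latter was 1.11 (edgeR adjusted p 0.00274), and without replicate 2 it was -1.10 (edgeR adjusted p 0.0160).

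**Figure D2:**
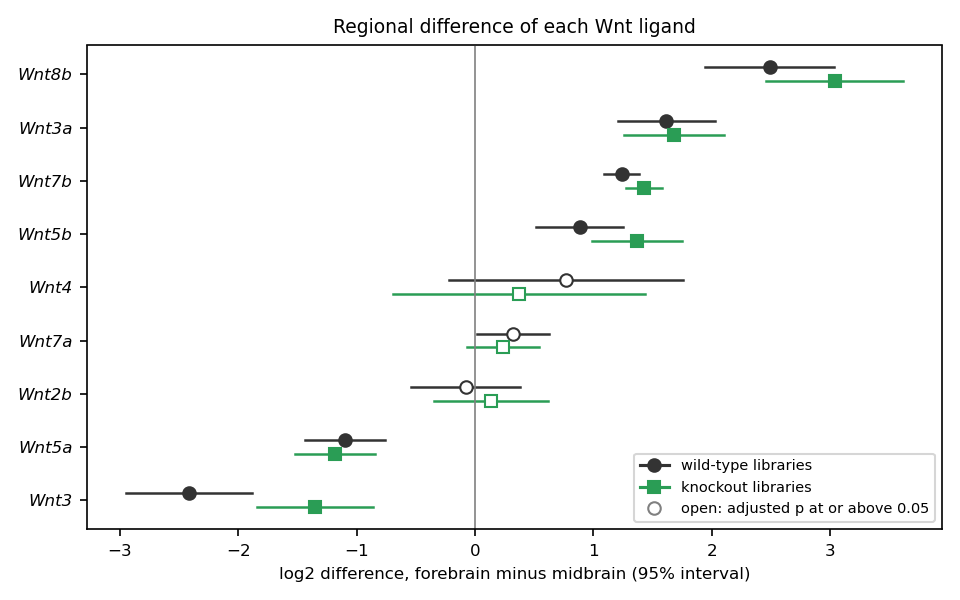
Log2 difference of forebrain minus midbrain (x axis) for each Wnt ligand (y axis), in wild-type libraries (circles) and knockout libraries (squares), 2 pools per group. Lines are 95% intervals and filled symbols passed an adjusted p of 0.05 in edgeR; Wnt8b, Wnt3a, Wnt7b and Wnt5b lie to the right, Wnt3 and Wnt5a to the left, and Wnt4, Wnt7a and Wnt2b are open in both.

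No member passed the test in either knockout comparison. In midbrain, with hs654 deleted, 0 of 9 members and 0% of all genes passed, and at an unadjusted edgeR p under 0.05 there were 0 members, against 3.96% of all genes. The log2 differences of the members ran from -0.33 (Wnt8b) to 0.14 (Wnt7a), with a median size of 0.14 against 0.10 over all genes tested. Knockout and wild-type pools did not overlap for 2 members, Wnt2b and Wnt5b, both lower in the knockout, and this was so for 36.7% of all genes. The precision differed among members. For Wnt7b the 95% interval of the log2 difference was -0.12 to 0.20, and for Wnt5a -0.34 to 0.31. For Wnt8b it was -0.99 to 0.33, and for Wnt4 -1.31 to 0.87, so changes of that size were not detectable here.

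In forebrain, with hs267-853 deleted, 0 of 9 members passed, against 0.013% of all genes. At an unadjusted edgeR p under 0.05 there were 2 members, Wnt3 and Wnt7b, against 4.78% of all genes. The members' median size was 0.22 on the log2 scale, against 0.09 over all genes tested. Wnt3 and Wnt7b were also the 2 members whose pools did not overlap, as was so for 31.1% of all genes. Both were higher in the knockout. Wnt3 differed by 0.97 ± 0.26 (SE) on the log2 scale, from 4.94 ± 1.33 to 9.69 ± 3.35 CPM (SD, n = 2 each, edgeR adjusted p 0.733). Wnt7b differed by 0.23 ± 0.07 (SE), from 188 ± 4.09 to 220 ± 14.3 CPM (SD, n = 2 each, edgeR adjusted p 0.852). Neither passed once the number of genes tested was allowed for. With each forebrain library left out in turn, the log2 difference ran from 0.58 to 1.30 for Wnt3 and from 0.16 to 0.29 for Wnt7b. Over the alternatives the adjusted p of Wnt3 ran from 0.000137 (edgeR with no filter on low counts) to 1.00 (edgeR on the 4 forebrain libraries alone). It passed only with no filter, a setting that put the wild-type Wnt8b difference at an edgeR adjusted p of 6.25e-143.

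The forebrain libraries can be set in one order by Wnt3: wild-type replicate 1, wild-type replicate 2, knockout replicate 1 and knockout replicate 2. The summed level of the 10 diencephalic markers followed that order, as did 3 of the 10 genes singly, at 130, 141, 174 and 184 CPM, against 731 to 836 CPM in midbrain. None of the 10 passed the test between the forebrain groups, and 7 had an unadjusted edgeR p under 0.05, against 4.78% of all genes. Of 8 feedback targets of the pathway 3 followed that order, Apcdd1, Axin2 and Sp5, and the list's median log2 difference between knockout and wild-type forebrain was 0.04. Apcdd1, a Wnt inhibitor, stood at 71.8, 83.4, 102 and 129 CPM in the same order (log2 0.57, edgeR adjusted p 0.237). Axin2, the usual readout gene of the pathway, stood at 98.6, 102, 105 and 130 CPM (log2 0.23, edgeR adjusted p 0.984), and Nkd1, which did not follow the order, at 69.1, 65.9, 62.0 and 74.5 CPM. The summed level of 4 Y-linked genes was 0, 62.5, 81.8 and 141 CPM in that order as well. Other summed lists rose in that order too: midbrain-hindbrain markers (44.4, 45.2, 55.1 and 57.8 CPM) and R-spondins with Lgr receptors (206, 223, 246 and 277 CPM). So did Frizzled receptors (1001, 1008, 1018 and 1058 CPM) and the feedback targets (309, 315, 326 and 409 CPM). The sums of the remaining marker and pathway lists did not follow it. The order was taken from Wnt3 itself, and the share of all genes that follow it was not counted. The counts of genes in that order therefore have no background to stand against. The part of these lists in the Wnt3 levels was not tested.

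Wnt4 had the most negative log2 difference in knockout forebrain, at -0.61 with a 95% interval of -1.58 to 0.35 (edgeR adjusted p 0.984). It rested on knockout replicate 1. Without that library the difference was 0.13, and without knockout replicate 2 it was -2.09 (edgeR adjusted p 0.00165). Markers of surface ectoderm, the skin layer over the head, were low in the same library. Their summed level over 8 genes was 60.7 and 39.5 CPM in wild-type forebrain, 14.0 and 58.3 CPM in knockout forebrain, and at most 14.0 CPM in any midbrain library. Of their defining genes, Trp63 was at 0 in that library, Krt5 at 0.114 CPM there and at 0 in all 4 midbrain libraries. Wnt6, a ligand known from surface ectoderm, stood at 9.84, 11.9, 1.02 and 10.0 CPM in the 4 forebrain libraries in that order. Summed head mesenchyme markers were 2252, 1799, 1271 and 1956 CPM. Their part in the Wnt4 levels was not tested.

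**Figure D3:**
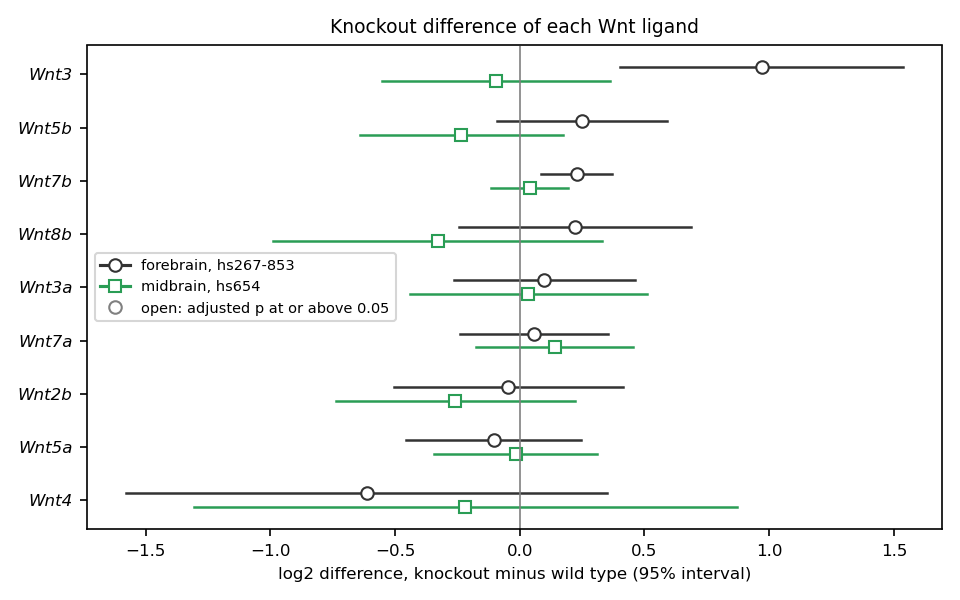
Log2 difference of knockout minus wild type (x axis) for each Wnt ligand (y axis), in forebrain with hs267-853 deleted (circles) and midbrain with hs654 deleted (squares), 2 pools per group. Lines are 95% intervals and all symbols are open, since no adjusted p was under 0.05; the intervals of Wnt3 and Wnt7b in forebrain lie above 0 before adjustment.

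**Figure D4:**
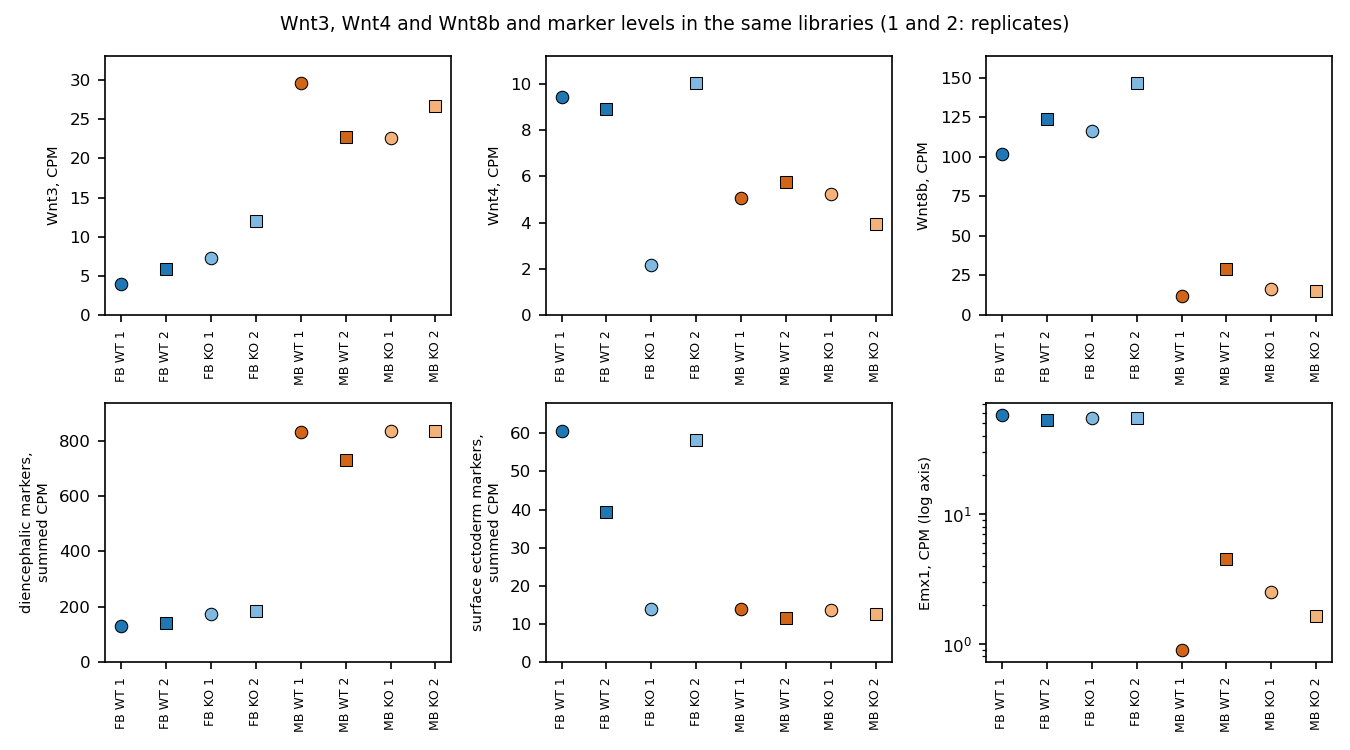
Upper row, CPM of Wnt3, Wnt4 and Wnt8b in each of the 8 libraries (x axis, FB forebrain, MB midbrain, WT wild type, KO knockout, with the replicate number). Lower row, in the same libraries, the summed CPM of 10 diencephalic markers, the summed CPM of 8 surface ectoderm markers, and the CPM of Emx1 on a log axis; forebrain knockout replicate 1 is low in Wnt4 and in the ectoderm markers, and wild-type midbrain replicate 2 is the highest midbrain library in Wnt8b and in Emx1, 1 of the 5 of 10 forebrain markers that are highest there.

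The difference between the knockout effects, midbrain minus forebrain, was tested in the same fit. It passed for 0 of 9 members and 0.0065% of all genes, and at an unadjusted edgeR p under 0.05 for 1 member, Wnt3, against 4.02% of all genes. The same term measures whether a regional difference changed between the wild-type and the knockout libraries. The deletion differs with the tissue, so tissue and deletion cannot be told apart in it. For Wnt3 the term was -1.06 ± 0.34 (SE) on the log2 scale (edgeR adjusted p 0.996). The smaller Wnt3 difference in the knockout libraries was thus not shown to differ from that in wild type.

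Of 10 other Wnt ligands listed, 8 were tested, and in wild type 3 were higher in forebrain, 1 was lower and 4 were not called. Wnt1, the ligand of the midbrain roof and the midbrain-hindbrain border, stood at 0.407 and 0.697 CPM in wild-type forebrain and 15.4 and 16.9 CPM in wild-type midbrain (log2 -4.87, edgeR adjusted p 2.93e-08). Like Wnt3 and Wnt5a it was thus on the midbrain side. Wnt1 passed the filter on low counts through midbrain, so the size of its difference rests on few forebrain counts. Wnt6 (log2 3.66, edgeR adjusted p 0.00284) and Wnt10a (log2 2.06, edgeR adjusted p 0.0103) were on the forebrain side. So was Wnt10b (edgeR adjusted p 0.0171), at 0.882 and 0.619 CPM in forebrain and 0 and 0.0799 CPM in midbrain. The midbrain values lie under the level of 3 counts (0.190 and 0.240 CPM), so no fold is given, and the gene passed the filter on low counts through forebrain. Wnt9a, the neighbour of Wnt3a, had means of 17.7 and 14.2 CPM in wild-type forebrain and midbrain and was not called (log2 0.32, edgeR adjusted p 0.205). Wnt9b, Wnt11 and Wnt16 were not called either, with log2 differences of 1.74, 0.69 and -0.40.

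Genes that make, receive or limit the ligands differed between the tissues as well. Of 72 other Wnt pathway genes listed, the ligands above included, 66 were tested, and 26 were higher in wild-type forebrain, 14 lower and 26 not called. Over all genes 14.3% were higher and 15.3% lower, and the counts of the short lists below stand against those shares. Wls, the carrier of all these ligands, was higher in midbrain (205 ± 4.74 against 127 ± 4.20 CPM, SD, n = 2 each, edgeR adjusted p 0.00760). Porcn did not pass (log2 -0.46, edgeR adjusted p 0.0513).

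Among 10 Frizzled receptors 7 were higher in forebrain and 2 in midbrain. Fzd8 was 6.94-fold higher in forebrain, at 129 ± 13.5 against 18.6 ± 1.74 CPM (SD, n = 2 each, edgeR adjusted p 8.77e-09). Fzd10 was 6.10-fold higher in midbrain, at 186 ± 10.4 against 30.5 ± 1.37 CPM (SD, n = 2 each, edgeR adjusted p 1.25e-07). Fzd5 and Fzd7 were on the forebrain side, with log2 differences of 1.47 and 1.14. Of 8 co-receptors 6 were higher in forebrain. Ror2, a receptor of Wnt5a, was among them at 60.1 ± 1.28 against 19.3 ± 4.57 CPM (SD, n = 2 each, edgeR adjusted p 2.48e-06), opposite in direction to Wnt5a itself. Ror1 (log2 0.83), Adgra2, the co-receptor of Wnt7a and Wnt7b on brain vessels (log2 0.52), and Lrp5 (log2 0.42) were the other co-receptors with the largest differences.

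R-spondins, secreted proteins that strengthen Wnt signals, and their Lgr receptors lay on opposite sides. Rspo1 (log2 2.05), Rspo3 (log2 1.67) and Rspo2 (log2 1.23) were higher in forebrain. Lgr5 (log2 -4.56) and Lgr4 (log2 -1.19) were higher in midbrain, and all 5 tested members were past the threshold. Lgr5 stood at 0.272 and 0.619 CPM in wild-type forebrain and 11.1 and 9.90 CPM in wild-type midbrain. It passed the filter on low counts through midbrain, so the size of its difference rests on few forebrain counts. Of 10 tested secreted antagonists 3 were higher in forebrain, 2 lower and 5 not called. Sfrp1 was 4.89-fold higher in forebrain, with Wif1 (log2 1.99) and Frzb (log2 1.83) on the same side, and Draxin, an axon guidance protein that binds Wnt co-receptors, was 4.56-fold higher in midbrain.

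Of 12 genes of the beta-catenin core 3 were higher in forebrain, 3 lower and 6 not called. Bcl9l (log2 0.47) and Axin1 (log2 0.29) were on the forebrain side, and Apc (log2 -0.47) and Ctnnb1, the gene of beta-catenin (log2 -0.25), on the midbrain side. Of 4 TCF/LEF factors Tcf7l2 was 6.61-fold higher in midbrain and Tcf7l1 1.72-fold higher in forebrain, and Tcf7 and Lef1 were not called. Of 8 feedback targets 3 were higher in midbrain, Lgr5, Apcdd1 (log2 -1.43) and Sp5 (log2 -0.47). The other 5, Axin2 among them (log2 -0.24, edgeR adjusted p 0.0634), were not called. Lgr5 is the gene already counted with the R-spondins and their receptors. In both knockout comparisons 0 of 66 pathway genes passed. At an unadjusted edgeR p under 0.05 there were 2 of the 66 in midbrain and 9 in forebrain, with the shares over all genes given above.

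Other marker lists differed between the wild-type tissues too, and their part in the members' levels was not tested. All 10 diencephalic markers were lower in forebrain, as given above, against 15.3% of all genes. Of 9 markers of dorsal midline and roof plate, 4 were higher in forebrain, 2 lower and 3 not called. Their summed level was 170 to 291 CPM in forebrain and 171 to 207 CPM in midbrain. All 9 neuronal markers were lower in forebrain, summing to 1475 to 2076 CPM against 3359 to 3801 CPM. Of 9 neural progenitor markers 4 were higher, 3 lower and 2 not called. Of 10 head mesenchyme markers 5 were higher in forebrain and 5 not called, and 7 of 8 surface ectoderm markers were higher.

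The genes with the pattern most like each member were taken by Pearson's r of log2 CPM over the 8 libraries, among 11886 tested genes with a mean of at least 5 CPM. These libraries fall into 2 tissues, so r holds the tissue difference as well as the spread within a tissue, and it is given as a description. Wnt8b was most like Galk1, Sh3d19 and Fam162a (r 0.998, 0.997 and 0.996), and Wnt7b most like Inka2, Rnps1 and Rangrf (0.998, 0.997 and 0.996). Wnt3a came closest to Irs1, Rcn1 and Nfia (0.995, 0.994 and 0.992), and Wnt5b to Uhrf1, Dnah11 and Tmpo (each 0.990). On the midbrain side Wnt3 came closest to Haghl, Ift88 and Chd6 (0.997, 0.990 and 0.987), and Wnt5a to Efna5, Tnks2 and Heph (0.995, 0.993 and 0.992). The members without a called regional difference had 1 (Wnt2b), 2 (Wnt4) and 4 (Wnt7a) genes with r over 0.95, against 126 to 615 for the other members. Wnt4 was most like Shroom4, Cdh1 and Vcl (0.987, 0.952 and 0.949), of which Cdh1 is the cadherin of epithelia. Wnt7a was most like Klhl2, Nedd4l and Arl2bp (0.985, 0.956 and 0.955), and Wnt2b most like Gulp1, Tmem41b and Rlf (0.978, 0.935 and 0.935).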

How the data were processed

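The 8 RNA libraries were analysed. The authors deposited 1 table of raw counts per gene symbol for each library, with no normalization. STAR, HTSeq, DESeq2 and the build mm10 are named in the submitters' processing notes, with no role or version. Strand setting and annotation are not given in the sources used here. Rows that name no gene were left out, and genes took 40.7% to 44.1% of the counts in genes, no feature and ambiguous positions together. Samples were grouped by tissue, genotype and replicate number in the labels.

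From the deposited counts, differences were fitted in R 4.3.3 by edgeR 4.0.16: filterByExpr, TMM scaling and 1 quasi-likelihood fit to all 8 libraries, whose 4 groups share an estimate of the spread (4 residual and 8.75 prior degrees of freedom). Tests were two-sided, adjusted by Benjamini-Hochberg over 15383 genes. A standard error is the log2 difference over the root of F. Replicates of 1 group differed beyond counting noise (chi-square divided by its degrees of freedom was 3.75 to 7.74).

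The alternatives tried were upper-quartile or RLE scaling, no low-count filter, DESeq2 1.42.0, limma-voom 3.58.1, the 4 libraries compared alone, a block for the replicate number, and leaving out each library. All 9 members were named, with every other tested ligand and up to 4 genes of each pathway list, those with the largest change among genes that passed with a mean of at least 1 CPM. Lgr4, Porcn, Axin2, single markers and the genes that overlap a member were named outside that rule, after their values were seen. Members and lists were chosen with earlier results of these data known.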

Additional observations from a re-analysis of the deposited data

How the results depend on the processing

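The 6 members called between the tissues kept their call and direction under every alternative, in wild-type and in knockout libraries. Over the 45 member differences, 480 of 522 alternative values kept direction and side of the threshold, and 11 kept direction and passed it newly. The other 31, none of them for a called difference, changed sign. A sign change was counted as such whether or not the value passed, as for Wnt4 between the knockout tissues without forebrain knockout replicate 2 (log2 -1.10). With no filter on low counts, 1 member was called in knockout forebrain (Wnt3, edgeR adjusted p 0.000137). For the difference between the knockout effects 2 were called (Wnt3 and Wnt8b, edgeR adjusted p 0.00463 and 0.0350). That setting gave far smaller p-values from the same 2 pools a group. Its edgeR adjusted p for Wnt8b between the wild-type tissues was 6.25e-143, against 8.48e-06 in the main fit. Calls made only with no filter are therefore not taken as results. With each library left out in turn, 0 to 1 members were called in knockout forebrain and 0 to 1 for that difference. The 1 was Wnt4, without forebrain knockout replicate 2. In wild type, Wnt4 and Wnt7a passed with no filter (adjusted p 0.00482 and 0.0414) and with the 4 libraries alone (0.0118 and 0.0394). Wnt7a passed between the knockouts without forebrain knockout replicate 2 (0.0268).

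Sign changes came from leaving out libraries and, for Wnt4 between the knockout tissues, from limma-voom (-0.071). Log2 differences with each library left out ran, between the knockout tissues, for Wnt2b -0.16 to 0.39 and Wnt4 -1.10 to 1.11. In midbrain (knockout minus wild type) they ran for Wnt3 -0.27 to 0.12, Wnt3a -0.095 to 0.16, Wnt5a -0.084 to 0.054, Wnt7a -0.0047 to 0.29, Wnt7b -0.015 to 0.097 and Wnt8b -0.85 to 0.39. In forebrain they ran for Wnt2b -0.34 to 0.21, Wnt3a -0.092 to 0.27, Wnt4 -2.09 to 0.13, Wnt5a -0.43 to 0.17, Wnt5b -0.0051 to 0.54 and Wnt7a -0.17 to 0.24. For the difference between the knockout effects they ran for Wnt2b -0.47 to 0.082, Wnt3a -0.24 to 0.13, Wnt4 -0.34 to 1.87, Wnt5a -0.19 to 0.41, Wnt7a -0.11 to 0.31 and Wnt8b -1.08 to 0.17. Beyond fewer samples, the cause was not tested.

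Over all genes, calls in midbrain went from 0 to 22 with no filter, 1 with the 4 libraries alone, and up to 8 with a library left out. In forebrain they went from 2 to 161 with no filter, 13 with DESeq2, 1 with limma-voom or the 4 libraries alone, 209 without knockout replicate 2 and 9 without knockout replicate 1. For the difference they went from 1 to 111 with no filter, 4 with DESeq2 and 64 without forebrain knockout replicate 2. Between tissues they went from 4548 to as few as 2816 in wild type and from 4523 to 2810 in the knockouts with a library left out.

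Deviations of same-numbered libraries correlated at -0.02 to 0.09 over 14321 genes, so no pairing by replicate number was seen over all genes. Single genes can still follow the number. In every group the Y-linked sum was higher in replicate 2 than in replicate 1, and Xist, an X-inactivation gene, was lower. The Y-linked sum was 0 in wild-type forebrain replicate 1. Xist was at 0.765 CPM in midbrain knockout replicate 2, against 856 to 2969 CPM in the other libraries. Sex-linked levels thus differed among the pools compared, and their part in the members' levels was not tested. Whether same-numbered pools were collected together was not tested. With the replicate block, 6, 6, 0, 0 and 0 members were called in the 5 comparisons, as without it. With 2 pools a group and 36 counts in the thinnest case, small changes of Wnt4, Wnt2b and Wnt3a in midbrain were not detectable.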
